A study of Mus musculus with 56 samples.

Results

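Expression of 10 imprinted genes was described in single cells of a primary mouse pituitary culture: *Nnat*, *Dlk1*, *Meg3*, *Rian*, *Peg3*, *Gnas*, *Snrpn*, *Ndn*, *Cdkn1c* and *Plagl1*. These genes were taken by name from the 47069 genes of the count table, and each had 1 row. The choice was made with earlier results of these data known. The pituitaries came from female C57BL/6 mice of 10 to 12 weeks, 5 glands were pooled for a sample, and the dispersed cells were cultured for 4 days and held in RNA-Best, a reagent that keeps whole cells and their RNA. Single cells were captured on a Fluidigm C1 circuit and amplified with SMART-Seq v4, a full-length cDNA method without molecular identifiers. All 56 wells were labelled as untreated cells of this kind, and 46 of them, those with at least 100000 counts over genes, were used. The labels name no animals, cultures or treatments that could be set against each other, so the wells count as 1 sample. Differences between wells are described without a test, since cells of 1 culture are not replicates.

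An imprinted gene is read mainly from 1 parental chromosome, because a mark laid down in the egg or the sperm keeps the other copy silent. Such genes often lie in clusters under a shared control region, and many act on growth, on placenta and brain, and on hormone-producing tissues. In the pituitary, *Dlk1* is known from growth hormone cells, *MEG3* in humans is known for its loss in non-functioning adenomas, and the *Gnas* locus encodes the stimulatory G protein through which releasing hormones such as GHRH and CRH act. Nothing in these libraries tells the parental copies apart, because the mice were of 1 inbred strain, so only total levels were measured.

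The members lie on chromosomes 2, 7, 10 and 12 (GRCm38, GENCODE M21). *Dlk1* (ENSMUSG00000040856.17, chromosome 12, 109452823 to 109463336, plus strand) encodes a membrane protein related to Notch ligands. In the same cluster lie the long non-coding RNAs *Meg3* (ENSMUSG00000021268.17, 109541001 to 109571726, plus strand) and *Rian* (ENSMUSG00000097451.9, 109603940 to 109661716, plus strand), the latter a host of small nucleolar RNAs. *Dlk1* is read from the paternal chromosome and *Meg3* and *Rian* from the maternal one. *Peg3* (ENSMUSG00000002265.15, chromosome 7, 6703892 to 6730431, minus strand) encodes a zinc finger protein read from the paternal copy. *Snrpn* (ENSMUSG00000102252.5, chromosome 7, 59982495 to 60140219, minus strand), which encodes a splicing protein, and *Ndn* (ENSMUSG00000033585.4, chromosome 7, 62346569 to 62350262, plus strand), which encodes the growth suppressor necdin, both belong to the paternally expressed Prader-Willi region. *Cdkn1c* (ENSMUSG00000037664.12, chromosome 7, 143458339 to 143461050, minus strand) encodes the cell cycle inhibitor p57 and is maternally expressed. *Nnat* (ENSMUSG00000067786.16, chromosome 2, 157560078 to 157562522, plus strand), within the gene *Blcap*, encodes a small membrane protein of the endoplasmic reticulum. *Gnas* (ENSMUSG00000027523.19, chromosome 2, 174284320 to 174346744, plus strand) has several promoters with different imprints. *Plagl1* (ENSMUSG00000019817.18, chromosome 10, 13060504 to 13131694, plus strand) encodes a zinc finger transcription factor that acts on other imprinted genes.

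Overlap with other annotated genes limits some of these rows, since it is not stated for these libraries whether counting used strand. Other genes cover 34.1% of the exon bases of *Snrpn*, 30.7% of those of *Cdkn1c* and 22.0% of those of *Gnas*, 8.29% for *Meg3*, and 4.76% or less for the others. For these 4 genes, reads of an overlapping gene cannot be told apart from their own. Of the overlapping genes, *Snurf* was at 1 CPM or more in 0 of 46 wells, *Gm38393* in 5, *Gm20721* in 1, *Nespas* in 3 and *Gm26906* in 0. Since 100% of the exon bases of *Snurf* are shared with other genes, its 0 does not show how far overlap affects *Snrpn*. The level of *Gm44732*, which overlaps *Cdkn1c*, was not analysed here.

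The promoters of the 5 genes on which the results below turn most are shown as the 250 bases before the first listed RefSeq start (GRCm38.p6), 5′ to 3′ on the strand of the gene. They are *Dlk1* and *Meg3* of the shared cluster (chr12:109452573-109452822 and chr12:109540746-109540995, both plus), *Peg3* (chr7:6730420-6730669, minus), *Plagl1* (chr10:13090582-13090831, plus) and *Nnat* (chr2:157559828-157560077, plus). Capitals mark matches, on either strand, to the GC box GGGCGG or CCGCCC, to the TATA box TATAAA or TTTATA, to the cyclic AMP response element TGACGTCA, and to the NRF1 core GCATGCGC or GCGCATGC.
Dlk1: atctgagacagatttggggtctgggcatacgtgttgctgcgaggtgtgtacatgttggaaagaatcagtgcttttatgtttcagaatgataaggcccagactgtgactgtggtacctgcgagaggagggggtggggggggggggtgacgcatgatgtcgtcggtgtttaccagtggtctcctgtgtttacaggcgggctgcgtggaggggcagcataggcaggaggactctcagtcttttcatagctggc
Meg3: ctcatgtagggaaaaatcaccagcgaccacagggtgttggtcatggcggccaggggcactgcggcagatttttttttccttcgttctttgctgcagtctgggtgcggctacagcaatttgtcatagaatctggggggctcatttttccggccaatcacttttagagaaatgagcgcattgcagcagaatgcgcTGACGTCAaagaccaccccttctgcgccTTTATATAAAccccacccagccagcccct
Peg3: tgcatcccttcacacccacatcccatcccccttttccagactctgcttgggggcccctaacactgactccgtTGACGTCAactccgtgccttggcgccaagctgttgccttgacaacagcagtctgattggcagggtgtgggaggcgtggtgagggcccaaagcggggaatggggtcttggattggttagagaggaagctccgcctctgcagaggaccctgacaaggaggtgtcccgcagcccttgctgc
Plagl1: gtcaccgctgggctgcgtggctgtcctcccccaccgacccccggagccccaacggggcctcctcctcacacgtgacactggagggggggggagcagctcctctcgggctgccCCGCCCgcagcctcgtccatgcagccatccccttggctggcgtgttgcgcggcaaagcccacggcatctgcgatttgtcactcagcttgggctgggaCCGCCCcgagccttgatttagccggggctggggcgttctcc
Nnat: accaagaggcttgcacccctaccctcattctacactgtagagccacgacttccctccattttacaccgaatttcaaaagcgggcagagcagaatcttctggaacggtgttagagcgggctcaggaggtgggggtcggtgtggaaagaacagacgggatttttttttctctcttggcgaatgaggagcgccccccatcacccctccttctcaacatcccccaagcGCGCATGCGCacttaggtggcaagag

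The 2 promoters of the *Dlk1*-*Meg3* cluster differed in these letters. *Meg3* held 1 cyclic AMP response element and, nearer the start, 2 overlapping TATA matches, while *Dlk1* held none of the motifs. A second start listed for *Meg3* (chr12:109545148-109545397, plus) had 0 CpG and none of the motifs. *Peg3* held 1 cyclic AMP response element, *Plagl1* held 2 GC boxes, and *Nnat* held the NRF1 core on both strands of 1 palindromic stretch. Of 32840 mouse promoters of the same length, 1.55% held the cyclic AMP response element, 12.4% the TATA box, 32.8% the GC box and 2.26% the NRF1 core. *Plagl1* had 19 CpG dinucleotides, *Nnat* 12, *Meg3* 10, and *Dlk1* and *Peg3* 8 each, where the median promoter had 6. The motifs were chosen after the promoters had been read, so a match is a description of the sequence and not evidence of binding.

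Depth differed strongly between wells. Gene counts ran from 111195 to 12563266 with a median of 1192620 and were over 1000000 in 25 of 46 wells, and synthetic ERCC spike-ins took 0.144% to 66.1% of all counts (median 6.08%). Counts were scaled to 1000000 gene counts per well without spike-ins (CPM), and a gene was called detected at 1 CPM or more. In a well under 1000000 counts a single count passes that limit. Wells C10 and C11 were nearly alike although named as separate cells (r = 0.966 of log2(CPM + 1)). That r is over all 47069 genes, those without counts in either well included. Well H4 carried endothelial markers at a summed 8855 CPM (median of all 46 wells 0.691 CPM). *Prl*, *Gh* and *Pomc* reads were found in all 46 wells, H4 included, with minima of 1216, 162 and 21.4 CPM, so the presence of a hormone transcript did not mark a cell type. Of the 3 pituicyte markers, which would mark posterior lobe cells, 0 were detected in 23 or more wells, and their sum was at most 21.8 CPM.

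Of the 10 genes, 9 were detected in at least 23 of the 46 wells, a level of detection that 12.3% of all 47069 genes reached. Since the genes were chosen with earlier results of these data known, this is not an independent comparison. The median well had 8 of the 10, 20 wells had 9, 16 wells had 8, and 0 wells had all 10. The lowest numbers were 3 in H9 and 4 in H4. The exception was *Cdkn1c*, detected in 2 wells (4.35%, exact Clopper-Pearson 95% interval 0.531% to 14.8%). It stood at 118 CPM in D2 and 11.4 CPM in A8, and D2 held 90.6% of its summed level.

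The RNAs of the *Dlk1*-*Meg3* cluster were the most widely detected. *Dlk1* and *Meg3* passed the limit in 46 of 46 wells each (interval 92.3% to 100%) and *Rian* in 45 (97.8%, interval 88.5% to 99.9%). *Peg3* followed with 44 wells (95.7%, interval 85.2% to 99.5%), *Plagl1* with 41 (89.1%, interval 76.4% to 96.4%) and *Gnas* with 40 (87.0%, interval 73.7% to 95.1%). *Snrpn* was detected in 37 wells (80.4%, interval 66.1% to 90.6%), *Nnat* in 34 (73.9%, interval 58.9% to 85.7%) and *Ndn* in 33 (71.7%, interval 56.5% to 84.0%). These intervals cover counting error only. When every well was thinned to 100000 counts, at which 1 count is 10 CPM, *Meg3* was still found in 95.7% of wells and *Dlk1* in 91.3%, while *Nnat* was found in 54.3% and *Ndn* in 47.8%.

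The level of each gene varied over orders of magnitude between wells. The summed level of the 10 genes had a median of 956 CPM and ran from 14.0 CPM in H4 to 10479 CPM in D2. *Meg3* ranged from 3.35 CPM in H4 over a median of 176 to 9855 CPM in D2, and *Dlk1* from 2.28 CPM in E8 over a median of 142 to 3361 CPM in B11. *Peg3* had a median of 65.1 CPM and a maximum of 1712 CPM in F11, and *Rian* had a median of 40.2 CPM and a maximum of 333 CPM in D2. The medians were 29.2 CPM for *Snrpn*, 17.3 CPM for *Gnas*, 13.8 CPM for *Plagl1*, 8.61 CPM for *Nnat* and 6.82 CPM for *Ndn*. The SD of log2(CPM + 1) over wells was smallest for *Rian* (1.74) and *Meg3* (1.85) and largest for *Nnat* (3.44) among the 10 genes, apart from *Cdkn1c*, which was at 0 in 42 of 46 wells.

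**Figure D1:**
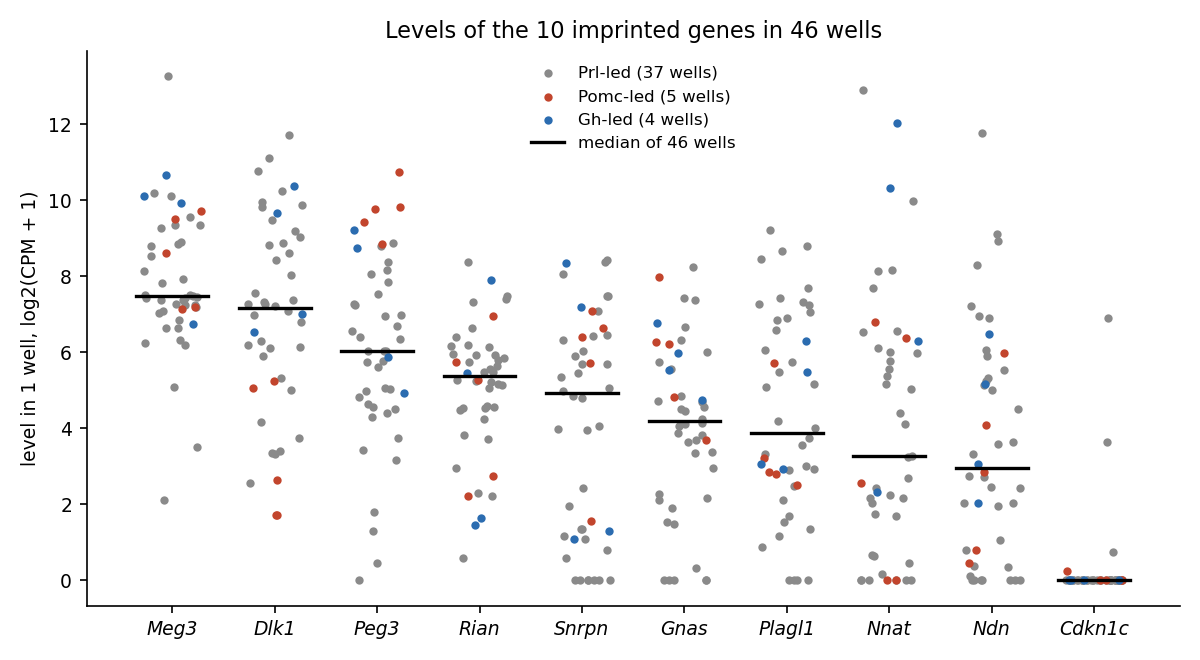
Level of each of the 10 imprinted genes as log2(CPM + 1) on the vertical axis, 1 point per well for 46 wells, coloured by the hormone gene with the highest level in the well, with a bar at the median. *Meg3* and *Dlk1* had the highest medians (176 and 142 CPM), *Peg3* was high in all 5 Pomc-led wells, and *Cdkn1c* was at 0 in 42 wells.

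Because reads per gene rise with transcript length, the genes were also ranked by TPM, in which counts are divided by the merged exon length of each gene before scaling. In that order the median was highest for *Dlk1* (38.2 TPM), followed by *Snrpn* (20.8), *Meg3* (15.3), *Peg3* (8.19), *Nnat* (6.15), *Rian* (3.18), *Ndn* (2.93), *Plagl1* (2.59) and *Gnas* (2.47), with *Cdkn1c* at 0. Apart from *Cdkn1c*, neighbours in this order were closer to each other than the spread of either gene over wells. Merged exons overstate the length of genes with many starts such as *Gnas*, and the table does not divide reads between its transcripts.

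Single wells held much of the total of some genes. *Nnat* was at 7618 CPM in E3, which is 48.1% of its sum over wells, then at 4203 CPM in H11, 1278 CPM in F4 and 1017 CPM in E9. E3 was also the well with the highest gonadotrope marker sum, with *Cga* at 57530 CPM and *Lhb* at 59401 CPM, the subunits of luteinizing hormone. *Ndn* was at 3453 CPM in A1, 59.5% of its sum, and the next wells, C10 and C11, had 549 and 483 CPM. *Meg3* was at 9855 CPM in D2, 37.7% of its sum, against 1616 CPM in H11, the next highest. In D2 *Rian* (333 CPM) and *Cdkn1c* (118 CPM) were also at their maxima, while *Dlk1* was at 77.1 CPM, below its median.

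The lowest numbers of detected members were found in wells H4 and H9. In H4, with endothelial markers, the highest member was *Dlk1* at 4.96 CPM, followed by *Meg3* at 3.35 CPM and *Peg3* at 2.48 CPM. In H9, a well of 10664300 gene counts, *Meg3* stood at 136 CPM, *Rian* at 55.0 CPM and *Dlk1* at 17.0 CPM, and the other 7 genes were at 0.375 CPM or less. H4 had 4033130 gene counts, so both were deeper than the median well. A second well with 4 or more of the 5 endothelial markers at 100 CPM, F6 (summed endothelial level 979 CPM), had 9 members detected and a summed level of 947 CPM.

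Levels differed between sets of plate columns. These sets come from an earlier grouping of these wells by expression, so differences in level between them are not an independent result. The 29 wells in plate columns 1 to 3 and 7 to 9 and the 17 wells in columns 4 to 6 and 10 to 12 differed most in *Snrpn* (median 4.35 against 78.7 CPM), *Plagl1* (8.37 against 77.3 CPM), *Nnat* (32.0 against 3.48 CPM), *Ndn* (4.35 against 34.7 CPM) and *Dlk1* (77.1 against 455 CPM). *Rian* was close (43.6 against 32.5 CPM). The same held among the wells led by *Prl* alone, where *Dlk1* had medians of 110 and 461 CPM, and *Snrpn* of 2.86 and 82.3 CPM. Plate position and kind of cell cannot be told apart here, and values within each set of columns are given beside the main results below.

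To see how the imprinted genes related to the leading hormone transcript, each well was named by the highest of *Prl* (prolactin), *Gh* (growth hormone), *Pomc* (the precursor of corticotropin), *Tshb*, and *Lhb* or *Fshb* in CPM. *Prl* led in 37 wells, *Pomc* in 5 (B2, D10, E8, F11 and H2) and *Gh* in 4 (B12, C9, F4 and H11). The Prl-led class held H4, with endothelial markers, and E3, with the highest gonadotrope marker sum, so a class is not a cell type. The Pomc-led wells carried little *Pou1f1*, the transcription factor of the prolactin, growth hormone and thyrotropin lineage, at 0 to 9.63 CPM. Prl-led wells ran from 0.281 over a median of 39.2 to 522 CPM. Low *Pou1f1* was not particular to the Pomc-led class. Of the Gh-led wells, F4, B12 and C9 had 1.41, 2.84 and 7.37 CPM, and H11 had 695 CPM. The melanotrope markers *Pax7*, *Pcsk2* and *Oacyl* summed to 35.3 to 2205 CPM in Pomc-led wells and to 0 to 495 CPM (median 11.6 CPM) in Prl-led wells. In the Gh-led well F4 the sum was 919 CPM, all of it *Pcsk2*. The Pomc-led wells were therefore not divided into cells of the anterior and the intermediate lobe. These classes were drawn from the same libraries, and the differences are therefore descriptions.

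*Peg3* was high in every Pomc-led well. It stood at 457 CPM in H2, 688 CPM in B2, 873 CPM in E8, 896 CPM in D10 and 1712 CPM in F11. In the 37 Prl-led wells it ran from 0 over a median of 53.2 to 466 CPM. A single Prl-led well, E1 with 466 CPM, reached the lowest Pomc-led value, and E1 was among the 3 Prl-led wells whose *Pomc* level (60788 CPM) was above the lowest of the Pomc-led wells. The mean log2(CPM + 1) was 9.72 ± 0.69 (SD, 5 wells) against 5.50 ± 2.21 (SD, 37 wells), a difference of 4.22. High *Peg3* was not confined to these wells: the Gh-led well F4 had 589 CPM, inside the Pomc-led range. The other Gh-led wells had 430 CPM (B12), 58.2 CPM (H11) and 29.5 CPM (C9).

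*Dlk1* was low in the same wells. It stood at 2.28 CPM in E8, 2.31 CPM in H2, 5.28 CPM in B2, 32.4 CPM in F11 and 36.6 CPM in D10. In Prl-led wells it ran from 4.96 over a median of 154 to 3361 CPM, and 30 of the 37 lay above every Pomc-led well. The mean log2(CPM + 1) was 3.28 ± 1.75 (SD, 5 wells) against 7.31 ± 2.37 (SD, 37 wells), a difference of -4.03. The low level did not follow *Pomc* alone: in the 3 Prl-led wells with *Pomc* above 51676 CPM, A10, D7 and E1, *Dlk1* was at 165, 900 and 929 CPM.

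Of 7073 genes that passed a filter of a mean of 10 CPM and detection in 10 wells, 12.7% were more than 2 log2 units higher in Pomc-led wells and 3.59% more than 2 lower. Against that background, 2 of the 9 members that passed were past the limit upwards, *Peg3* and *Gnas*, and 1 downwards, *Dlk1*. The median difference over all of these genes was 0.42. *Peg3* was at the percentile 99.5 of all differences and *Dlk1* at 0.0707. *Gnas* stood at 11.9 CPM in D10, 27.4 CPM in H2, 73.8 CPM in E8, 75.9 CPM in F11 and 252 CPM in B2, against a Prl-led median of 13.7 CPM, a difference of 2.17. The ranges overlapped, with 21 of 37 Prl-led wells above the lowest Pomc-led one, and without B2 the *Gnas* difference was 1.62.

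The other members differed by less than 2 log2 units between the classes when all wells were used: *Snrpn* by 1.63, *Meg3* by 0.80, *Nnat* by -0.61, *Rian* by -0.63, *Ndn* by -0.71 and *Plagl1* by -1.06. Without D10 the *Snrpn* difference was 2.60. Within columns 4 to 6 and 10 to 12 *Ndn* (-3.89) and *Plagl1* (-3.41) were past the limit as well, while within columns 1 to 3 and 7 to 9 they stood at 1.00 and 0.18. *Meg3* in the Pomc-led wells was at 139 CPM in D10, 144 CPM in H2, 392 CPM in F11, 723 CPM in B2 and 840 CPM in E8, inside the Prl-led range.

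All 5 Pomc-led wells had a spike-in share under 1%, where Prl-led wells had a median of 8.18%. Within spike-in shares under 1%, 5 against 13 wells, the difference was 3.78 for *Peg3*, -4.88 for *Dlk1*, 1.42 for *Gnas* and -0.00139 for *Meg3*. Within plate columns 1 to 3 and 7 to 9 it was 4.09 for *Peg3* and -4.64 for *Dlk1*, and within columns 4 to 6 and 10 to 12 it was 4.26 and -3.49, with 2 Pomc-led wells in the latter. In that latter set the *Gnas* difference was -0.0526, and for *Snrpn* the sets had opposite signs, 3.94 and -2.48. Well F11 also carried erythroid markers at a summed 146749 CPM (the other Pomc-led wells at 58.8 CPM or less, Prl-led wells at a median of 84.2 CPM), and without F11 the differences were 3.96 for *Peg3* and -4.48 for *Dlk1*. H2 carried *Cga* at 41215 CPM, and without H2 they were 4.44 and -3.64.

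**Figure D2:**
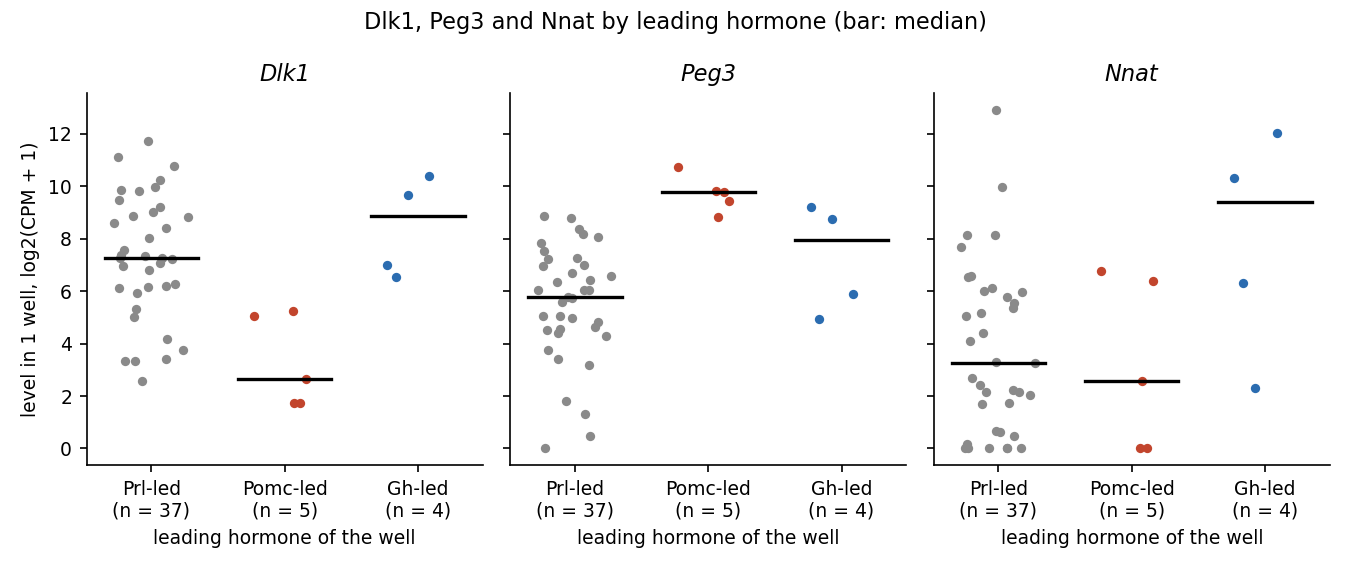
Levels of *Dlk1*, *Peg3* and *Nnat* as log2(CPM + 1), 1 point per well, by the leading hormone of the well (37 Prl-led, 5 Pomc-led and 4 Gh-led wells), with a bar at the median. Pomc-led wells had *Dlk1* at 2.28 to 36.6 CPM and *Peg3* at 457 to 1712 CPM, and *Nnat* in Gh-led wells spread from 3.98 to 4203 CPM.

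In the 4 Gh-led wells *Nnat* had the largest difference among the members. It stood at 3.98 CPM in B12, 78.1 CPM in C9, 1278 CPM in F4 and 4203 CPM in H11, against a Prl-led median of 8.51 CPM, a difference of 3.99 in mean log2(CPM + 1), which ran from 2.56 without H11 to 5.80 without B12. The Gh-led wells themselves differed (SD 4.34), and 21 of the 37 Prl-led wells were above B12. *Gnas* was 2.13 higher, at 25.9 CPM in H11, 45.0 CPM in B12, 61.9 CPM in C9 and 108 CPM in F4, with 9 Prl-led wells above its lowest value, and 1.79 higher without F4. Of all 7073 genes, 10.8% were more than 2 higher and 3.34% more than 2 lower in Gh-led wells, and the median difference was 0.31. Of the 9 members, *Nnat* and *Gnas* passed upwards and 0 downwards. In plate columns 4 to 6 and 10 to 12, which held 3 of the 4 wells, the differences were 6.42 for *Nnat* and 0.65 for *Gnas*, and in the other columns C9 alone was 1.61 higher for *Nnat* and 3.02 for *Gnas*.

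*Dlk1* was present in all 4 Gh-led wells, at 91.4 CPM in C9, 127 CPM in F4, 805 CPM in B12 and 1332 CPM in H11, within the Prl-led range (difference 1.08). *Meg3* was at 107 CPM in C9 and between 968 and 1616 CPM in the others, with *Meg3* 1.74 higher and *Peg3* 1.69 higher than in Prl-led wells. The Gh-led class was loose: in B12, F4 and H11 *Gh* was at 5384 to 12350 CPM, levels also found in Prl-led wells, and it led because *Prl* was at 2069 to 2286 CPM. Of the 4 wells, C9 alone had far more, with *Gh* at 307675 CPM. A11 was named Prl-led by a narrow margin, with *Prl* at 204530 CPM and *Gh* at 202245 CPM. It had *Nnat* at 8.51 CPM.

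The members were also set beside the levels of the hormone transcripts themselves. Over the 46 wells, 2 of 36 pairs of a member with *Prl*, *Gh*, *Pomc* or *Cga* had an absolute Pearson r of log2(CPM + 1) of 0.4 or more. *Peg3* had r = -0.48 (rho = -0.42) with *Prl*, and -0.36 when *Prl*, *Gh* and *Pomc* were left out of the total. The value of -0.48 was the lowest among the correlations of *Peg3* with 7072 genes, whose median was 0.24. *Gnas* had r = -0.40 (rho = -0.42) with *Cga*, the shared glycoprotein hormone subunit, at the percentile 0.481 of its correlations (median 0.17). *Gh* itself had r = -0.70 with the log2 gene counts of the well and *Cga* -0.43, whereas the members lay between -0.26 and 0.12. *Dlk1* had r = -0.32 with *Cga*, at the percentile 0.749 of the correlations of *Dlk1*. In the 14 Prl-led wells with *Cga* over 1000 CPM the median of *Dlk1* was 70.6 CPM (range 8.98 to 390), and in the other 23 it was 455 CPM (range 4.96 to 3361). That limit was set after the values had been seen. Of the 14 wells, 13 lay in plate columns 1 to 3 and 7 to 9, and within those columns the medians were 69.7 CPM (13 wells) and 208 CPM (12 wells).

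The next question was whether the RNAs of the *Dlk1*-*Meg3* cluster varied together from cell to cell. All correlations here are of log2(CPM + 1) over wells of 1 plate, which share the amplification run and differ in depth. *Meg3* and *Rian*, both read from the maternal chromosome, had r = 0.51 (rho = 0.49), higher than 97.9% of the correlations of *Meg3* with 7072 genes, whose median was 0.17. *Dlk1* and *Meg3* had r = 0.42 (rho = 0.50), higher than 87.7% of those of *Dlk1* (median 0.17), and *Dlk1* and *Rian* had r = 0.24 (rho = 0.22), higher than 62.3%. Without H4 the values for these pairs were 0.40, 0.35 and 0.16, and with C10 and C11 counted as 1 well they were 0.52, 0.41 and 0.27. All 3 RNAs were detected together in 45 of 46 wells, the exception being H4, where *Rian* was at 0.496 CPM.

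Among the 37 Prl-led wells the 3 correlations were higher: 0.77 for *Meg3* with *Rian*, 0.57 for *Dlk1* with *Meg3* and 0.48 for *Dlk1* with *Rian*. H4, where all 3 were near 0, contributed to this, and without it they were 0.69, 0.50 and 0.38. The median r of *Dlk1* with all genes was also higher, at 0.28 against 0.17 over all wells. *Dlk1* with *Meg3* was above 88.6% of these correlations, or 78.8% without H4, against 87.7% over all wells. *Dlk1* with *Rian* was above 77.1%, or 63.0% without H4, against 62.3%. *Meg3* with *Rian* was above 99.97% of those of *Meg3*, or 99.9% without H4, against 97.9%. In the 25 Prl-led wells of plate columns 1 to 3 and 7 to 9, *Meg3* and *Rian* had r = 0.79, and in the 12 of columns 4 to 6 and 10 to 12 r = 0.80. For *Dlk1* with *Meg3* these values were 0.46 and 0.84. H4 is 1 of those 12 wells, and over the other 11 the values were 0.55 for *Meg3* with *Rian* and 0.52 for *Dlk1* with *Meg3*. Both relations were positive within each set of columns, and both were lower in the smaller set without H4.

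**Figure D3:**
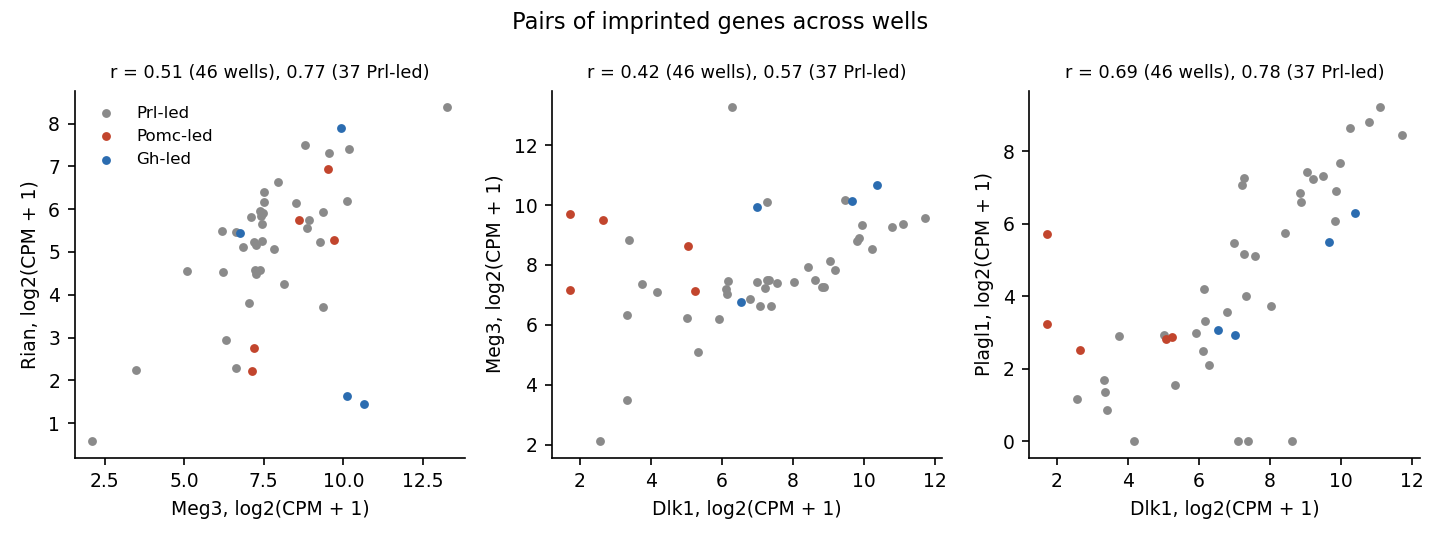
Levels of 3 pairs of imprinted genes as log2(CPM + 1), 1 point per well for 46 wells, coloured by leading hormone. *Rian* was higher where *Meg3* was higher (r = 0.51) except in 2 Gh-led wells at the lower right, *Dlk1* was low in the Pomc-led wells at all of their *Meg3* levels (r = 0.42), and *Plagl1* was higher where *Dlk1* was higher (r = 0.69).

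Pairs of wells with like *Meg3* could differ in *Rian*. *Rian* counts were a median of 16.0% of *Meg3* counts, and the quartiles were 8.75% and 33.3%. In 2 Gh-led wells the share was far lower: H11 had 10 *Rian* counts for 9307 *Meg3* counts (0.107%), and B12 had 15 for 7845 (0.191%). The next lowest share was 1.86% in C10, and 8 wells lay under 5%, 3 of them Pomc-led. In F4, a Gh-led well with 2066 *Meg3* counts, *Rian* had 508 (24.6%), so the Gh-led wells did not move as a group. *Mirg*, a further RNA of the cluster beyond *Rian*, was at 126 CPM in B12, among its 4 highest wells.

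The ratio of *Dlk1* to *Meg3* counts also varied. It had a median of 0.873 and ran from 0.00272 in E8 (3 against 1104 counts) to 4.46 in B11 (15876 against 3562 counts). *Dlk1* counts were above *Meg3* counts in 19 wells, and all 19 were Prl-led. D2, the well with the most *Meg3*, had a ratio of 0.00783. Over all 56 wells, used or not, counts of *Meg3* were not whole in 28 wells, those of *Rian* in 20 and those of *Dlk1* in 1. The source of the fractions is not given, and their part in these ratios was not tested.

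**Figure D4:**
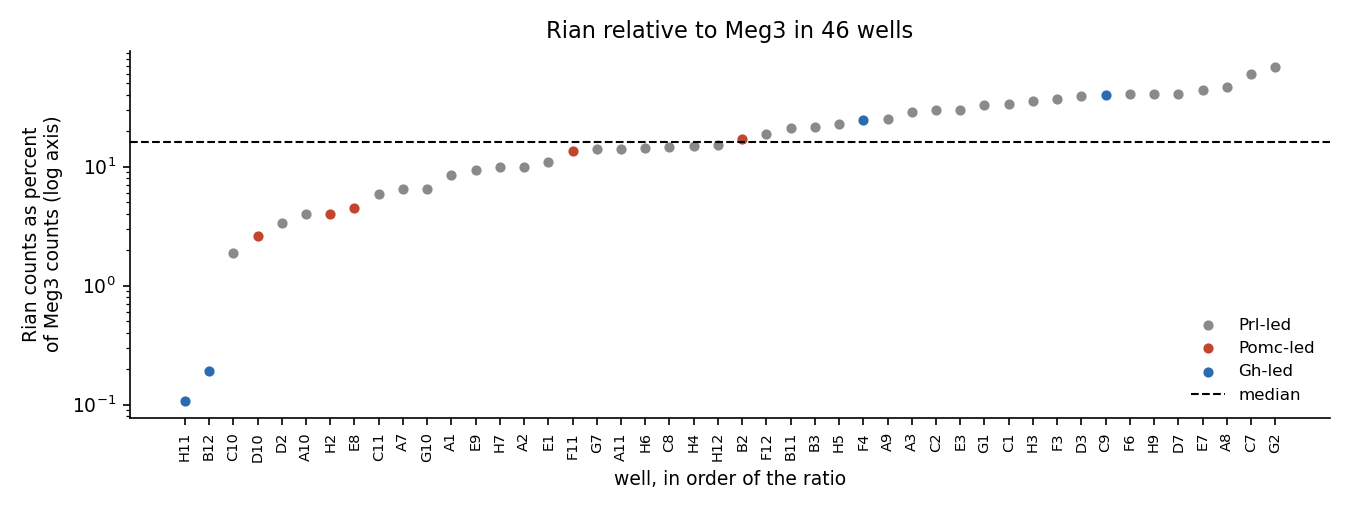
*Rian* counts as a percent of *Meg3* counts on a log axis for 46 wells in order of the share, coloured by leading hormone, with a dashed line at the median of 16.0%. H11 (0.107%) and B12 (0.191%) lie far below the other wells, which run from 1.86% to 68.1%.

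Other RNAs of the cluster were scarce. *Mirg* was detected in 33 wells with a median of 4.30 CPM and had r = 0.29 with *Meg3* and 0.17 with *Rian*. *Rtl1*, which is paternally expressed like *Dlk1*, was detected in 3 wells and *Dio3* in 0 of 46 wells, which allows a share of wells of up to 6.52% by a floor of 3 wells and 7.71% by the exact interval.

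Pairs of imprinted genes on different chromosomes had correlations as high as those within the *Dlk1*-*Meg3* cluster. Among the 36 pairs of the 9 members other than *Cdkn1c*, r ran from -0.14 to 0.69 with a median of 0.36, 17 pairs were over 0.4, and 4 were below 0. The highest was *Dlk1* on chromosome 12 with *Plagl1* on chromosome 10 (r = 0.69, rho = 0.73), above 99.9% of the correlations of *Dlk1* with all genes. It was 0.52 in the 29 wells of columns 1 to 3 and 7 to 9 and 0.82 in the 17 of columns 4 to 6 and 10 to 12. Then followed *Plagl1* with *Snrpn* (0.66), *Gnas* with *Snrpn* (0.63), *Gnas* with *Plagl1* (0.59) and *Peg3* with *Snrpn* (0.56). *Ndn* and *Snrpn*, neighbours in the Prader-Willi region, had r = 0.43, and *Nnat* with *Snrpn* was lowest at -0.14. The median r of a member with all genes ran from 0.02 for *Nnat* to 0.25 for *Snrpn*, so positive values were common. The value of *Ndn* with *Snrpn* was above 96.1% of the correlations of *Ndn* but above 77.7% of those of *Snrpn*. The share of all gene pairs over 0.4 was not computed, so the 17 pairs are not a result about imprinted genes.

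Some relations of *Dlk1* were higher over the Prl-led wells than over all wells. *Dlk1* and *Peg3* had r = 0.25 over all 46 wells but 0.73 (rho = 0.80) over the 37 Prl-led wells, 0.72 in the 25 of columns 1 to 3 and 7 to 9 and 0.75 in the 12 of columns 4 to 6 and 10 to 12. Without H4 it was 0.70. The correlations of *Dlk1* with all genes had a median of 0.17 over all wells and 0.28 over the Prl-led ones. *Dlk1* with *Peg3* was above 63.9% of them over all wells and above 98.1% over the Prl-led ones. *Dlk1* with *Gnas* was 0.42 over all wells and 0.77 over the Prl-led ones, and *Dlk1* with *Snrpn* 0.41 and 0.73, but these values differed between the sets of columns, at 0.58 and 0.96 for *Gnas* and 0.54 and 0.98 for *Snrpn* among Prl-led wells. Among Prl-led wells the median of the 36 pairs was 0.45 over all columns, 0.28 within the first set and 0.76 within the second, or 0.59 there without H4. Since the sets of columns differed in the levels of several members, the pooled values contain that shift.

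**Figure D5:**
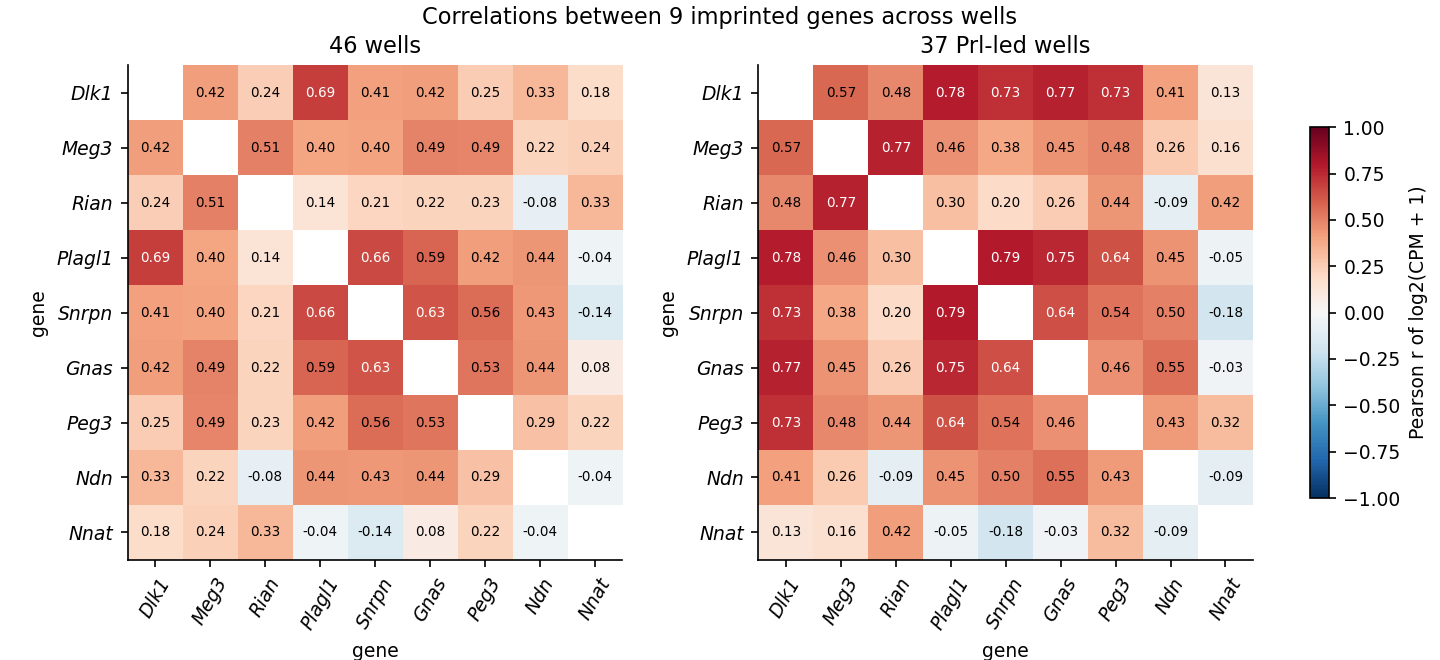
Pearson r of log2(CPM + 1) between 9 imprinted genes over 46 wells (left) and over the 37 Prl-led wells (right), from blue at -1 to red at 1. *Dlk1* with *Peg3* was 0.73 among Prl-led wells against 0.25 over all wells, *Meg3* with *Rian* was 0.77 against 0.51, *Peg3* with *Gnas* was 0.46 against 0.53, and *Nnat* stayed between -0.18 and 0.42 on the right.

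The 3 genes whose pattern was most like that of each member, among 7072, included further imprinted genes that the lists held. For *Dlk1* they were *Slc35a4* (r = 0.78), *Mest* (0.73) and *Uhrf1bp1l* (0.72). *Mest*, a paternally expressed gene on another chromosome, had a median of 122 CPM and r = 0.86 with *Dlk1* over the Prl-led wells, 0.83 and 0.89 within the sets of columns. For *Peg3* they were *Sar1a* (0.80), *Sdha* (0.78) and *Nap1l5* (0.76), the last of which is imprinted, and for *Nnat* they were *Tmc4* (0.69), *Sgce* (0.66), also imprinted, and *Pnmal2* (0.64).

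For *Meg3* the most alike genes were *Selenok* (0.70) and *Sec11c* (0.70), both of the endoplasmic reticulum, and a gene without a symbol, ENSMUSG00000059511.3 (0.68). For *Rian* they were *Dpm2* (0.66), *Eef1e1* (0.65) and *C1galt1c1* (0.65), for *Gnas* *Gorasp2* (0.73), *Prelid3b* (0.72) and *Maged1* (0.72), and for *Snrpn* *Ndufa8* (0.83), *Atp6v1b2* (0.82) and *Gtf2b* (0.81). *Gtf2b* also led for *Plagl1* (0.76), before *Hacd3* (0.75) and *Ugp2* (0.75). For *Ndn* they were *Cdca4* (0.70), *Kif21a* (0.69) and *Nrip1* (0.69), of which *Cdca4* was detected in 10 wells. *Ndufa8* belongs to the respiratory chain, *Atp6v1b2* to the vacuolar proton pump and *Gtf2b* to the general transcription machinery, and the median r of *Snrpn* with all genes was 0.25.

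Of 50 other imprinted genes in the table, 18 were detected in at least 23 of 46 wells, as were 12.3% of all 47069 genes. A further 13 were detected in 0 wells, and 11 had a median of 10 CPM or more. The lowest of these 11 medians, that of *Blcap*, was above 94.4% of the medians of all genes. The share of all genes at 0 wells was not computed. The list was made with earlier results of these data known, so these counts are descriptions. The 11 were *H13* (146 CPM), *Cd81* (138), *Mest* (122), *Ube3a* (18.7), *Sgce* (17.7), *Nap1l5* (15.2), *Rasgrf1* (14.9), *Kcnq1ot1* (13.2), *Asb4* (11.2), *Commd1* (11.1) and *Blcap* (10.7). Neighbours of the members at or near 0 included *Zim2*, *Zim3*, *Mkrn3*, *Phlda2* and *Magel2* (0 wells each), *Peg12* (1 well) and *Usp29* (14 wells), and *Zim1* was detected in 21 wells. *H19* was detected in 0 wells and *Igf2* in 1, at 1.10 CPM.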

How the data were processed

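Per the submitters' processing notes, reads of the single-cell libraries were aligned with STAR 2.5.1b to mm10 and counted with featureCounts 1.5.0-p1. The annotation release, the strand setting and the treatment of reads with several places were not given in the sources used here. Values are estimated counts in a single table, as deposited by the authors without scaling, and some are not whole numbers. CPM was computed from the 47069 gene rows without spike-ins, and logs are log2(CPM + 1). Symbols came from GENCODE M21 for 46488 identifiers, exon lengths for TPM from the same release, and promoter sequences from RefSeq (GRCm38.p6), in which *Cdkn1c* had no entry. Of 51 listed other imprinted genes, 50 had a row.

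The 56 wells are 1 sample, so shares have exact Clopper-Pearson 95% intervals and no test was run. Correlations and differences were set beside those of all genes with a mean of at least 10 CPM and detection in at least 10 wells. Counts were rounded to whole numbers only for thinning. The genes named were the 10 members, the hormone genes, listed imprinted genes in a member's cluster or with a median of 10 CPM or more, and the 3 genes most alike to each member. *H19*, *Igf2*, *Zim2* and *Zim3*, *Gm38393*, *Gm20721*, *Gm26906* and *Gm44732*, the motifs, the limit on *Cga* and single wells were named after values or sequences had been seen. The members and lists were chosen with earlier results of these data known, and the sets of plate columns come from an earlier grouping of these wells by expression. Doublets were not called, because 46 wells are too few.

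The code was tested on simulated wells with 47069 genes: 96% of planted partners were recovered among the 99 highest correlations, 100% of genes set 32-fold higher in 5 wells and 0.348% of unchanged genes passed 2 log2 units. Apart from the planted effects, noise was independent between genes, without shared variation of plate or cell type. These rates therefore check the code only and do not carry over to the real wells, where 12.7% of genes passed upwards and 3.59% downwards in Pomc-led wells. Alternatives changed the detection limit, depth, wells, pseudocount, total and type of correlation. Python 3.11.15, numpy 2.4.6, pandas 2.3.3, scipy 1.17.1 and matplotlib 3.10.9 were used.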

Additional observations from a re-analysis of the deposited data

Results flagged for a closer look

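The 10 wells under 100000 gene counts, which enter no result above, also held reads of these genes. *Dlk1* was detected in 9 of the 10 with a median of 1115 CPM (median 25 counts), and *Meg3* in 9 with a median of 549 CPM (9 counts). *Plagl1* was detected in 8 with a median of 310 CPM (8.5 counts), and *Ndn* in 6 with a median of 68.1 CPM (3.5 counts). All 10 lie in plate columns 4 to 6 and 10 to 12 and are led by *Prl*. Their counts are few, and no weight is put on single wells.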

How the results depend on the processing

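No paired analysis was possible because the wells form 1 group and share no replicate numbers with another. With detection at 10 CPM the median well held 6 of the 10 genes. For *Dlk1* with *Meg3*, r was 0.14 over all 56 wells, 0.22 in plate columns 1 to 3 and 7 to 9, 0.67 in columns 4 to 6 and 10 to 12, and 0.57 over Prl-led wells. For *Dlk1* with *Rian* it was 0.12 over all 56 wells, 0.49 in columns 1 to 3 and 7 to 9, and 0.48 over Prl-led wells. For *Meg3* with *Rian* it was 0.40 over all 56 wells, 0.74 in columns 1 to 3 and 7 to 9, 0.77 over Prl-led wells, 0.30 without D2 and H4, and from 0.40 (without H4) to 0.62 (without H11) when each well was left out in turn. The number of members past 2 log2 units in Pomc-led wells was 5 in columns 4 to 6 and 10 to 12, where *Gnas* reversed to -0.0526. In Gh-led wells it was 5 with at least 1000000 gene counts, 1 in columns 1 to 3 and 7 to 9, 1 without *Prl*, *Gh* and *Pomc* in the total, 1 with a pseudocount of 10, and up to 4 without C9. The cause was not tested. *Peg3* and *Dlk1* in Pomc-led wells stayed past 2 log2 units under every alternative run. Wells are few outside the Prl-led class, and 1 count exceeds 1 CPM in wells under 1000000 counts. The Prl-led, spike-in and leave-one-out alternatives were chosen after seeing the data.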
